A study of Drosophila melanogaster with 23 samples.

Results

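RNA of Drosophila melanogaster hearts was sequenced at 1 week and at 5 weeks of age in the control strains w1118 and attp2, and the results below concern whether transcript levels differed with age by the same amount in both. The comparison used 18 of the 23 libraries of the series: 4 of w1118 at 1 week, 4 of w1118 at 5 weeks, 5 of attp2 at 1 week and 5 of attp2 at 5 weeks. The remaining 5 libraries, from 1-week hearts that expressed RNAi against Lamin C from the Hand promoter in the attp2 background, were not used. One stated purpose of the sequencing was to see which age-dependent changes were shared by both strains. For each gene the difference between 5 weeks and 1 week was taken within a strain, on a log2 scale, and the w1118 difference was subtracted from the attp2 difference. This value is called the interaction. It is positive where a gene moved further up, or less far down, with age in attp2. Only the interaction was tested, because the counts of the strains were deposited as separate tables, so that a level difference between strains and a difference between tables cannot be told apart. Neither strain carries a transgene in its label, and the labels give no sex, no number of hearts in a library and do not state that replicates are separate cultures. The p-values therefore set the interaction only against the spread between replicate libraries, which may in part be technical.

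The fly heart is a contractile tube of muscle cells lying along the back of the abdomen, flanked by pericardial nephrocytes and surrounded by fat body, oenocytes and blood cells, so a dissected heart carries RNA of these neighbours too. Known features of the ageing fly are a rise of immune gene transcripts and a decline of muscle and mitochondrial ones, while laboratory strains differ in the detoxification, immune and other genes they express. The line w1118 is a white-eyed laboratory stock, and attP2 is the name of a landing site on the third chromosome that is used in stocks into which RNAi constructs are inserted.

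Total counts (M, mega) ran from 33.4 to 52.5 M (w1118, 1 week), 21.8 to 48.5 M (w1118, 5 weeks), 45.1 to 77.1 M (attp2, 1 week) and 48.3 to 90.03 M (attp2, 5 weeks). Levels are given as CPM, the count divided by the scaled total of the library in M, with scaling over the 18 libraries. The label of heart tissue was borne out in all 18 libraries by Hand, a cardiac transcription factor gene, at 186 to 619 CPM. H15, a T-box factor gene of cardiac cells, was at 37.7 to 97.8 CPM. The cardiac homeobox gene tinman (tin) was at 3.61 to 12.1 CPM. The T-box genes mid and Doc3 were at 2.355 to 9.47 and 0.49 to 7.255 CPM. However, prc, which encodes the pericardin collagen of the heart, lay at only 0.345 to 1.83 CPM. At 1 week, oenocyte markers summed to 68009 to 126619 CPM in w1118 and 122028 to 221917 CPM in attp2. At 5 weeks these sums were 72861 to 100586 and 133388 to 148486 CPM. Muscle genes of the sarcomere summed to less, at 19284 to 24869 and 16185 to 21113 CPM at 1 week. Of the attp2 libraries, library 3 at 1 week and libraries 3 and 4 at 5 weeks stood apart in 28 marker genes of the gut, which summed to 12734, 18482 and 959 CPM there and to between 66.1 and 256 CPM in the other 15 libraries. Yolk protein transcripts, made in the fat body and in the ovary, also varied widely, so that the fat body markers summed to 16706 to 87495 CPM in attp2 at 5 weeks. The circadian clock genes summed to 1413 and 1430.0 CPM in attp2 1-week libraries 1 and 2 against 2372 to 2576 CPM in libraries 3 to 5, and the libraries with these numbers were split in the same way at 5 weeks, at 1162 and 1326 against 2089 to 2283 CPM.

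The estimated age difference had the same sign in both strains for most genes. The age differences themselves were not tested, and signs of unrelated values also agree for many genes. Of 10387 genes tested, 65.6% had an age difference of the same sign in w1118 and in attp2, and the 2 sets of age differences had a Pearson correlation of 0.44 across genes, which are not independent replicates. The interaction passed an adjusted p of 0.05 for 79 genes (0.761% of those tested), of which 29 were positive (0.279%) and 50 were negative (0.481%). Without adjustment, 1551 genes (14.9%) had a p under 0.05. DESeq2 made 186 positive and 228 negative calls and limma-voom 87 and 130, while scaling by library totals alone, which moved the median interaction of all genes by 0.17, gave 103 positive and 34 negative calls. The called genes were selected by a difference between the age differences, which favours opposite signs and large sizes. Of these 79, 65 (82.3%) had age differences of opposite sign in the strains, against 34.4% of all genes tested. In 23 of the 65 the level was higher at 5 weeks in attp2 and lower in w1118, and in 42 the reverse held. Another 12 were higher at 5 weeks in both strains and 2 were lower in both. The interaction was at least 1 in size, a 2-fold difference between the age ratios, for 50 of the called genes and had a median size of 1.21, against a median size of 0.27 over all genes and a 95% interval that at the median reached 0.52 to either side. The plot of the age difference in attp2 against that in w1118 shows the called genes on either side of the line of equality.

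**Figure D1:**
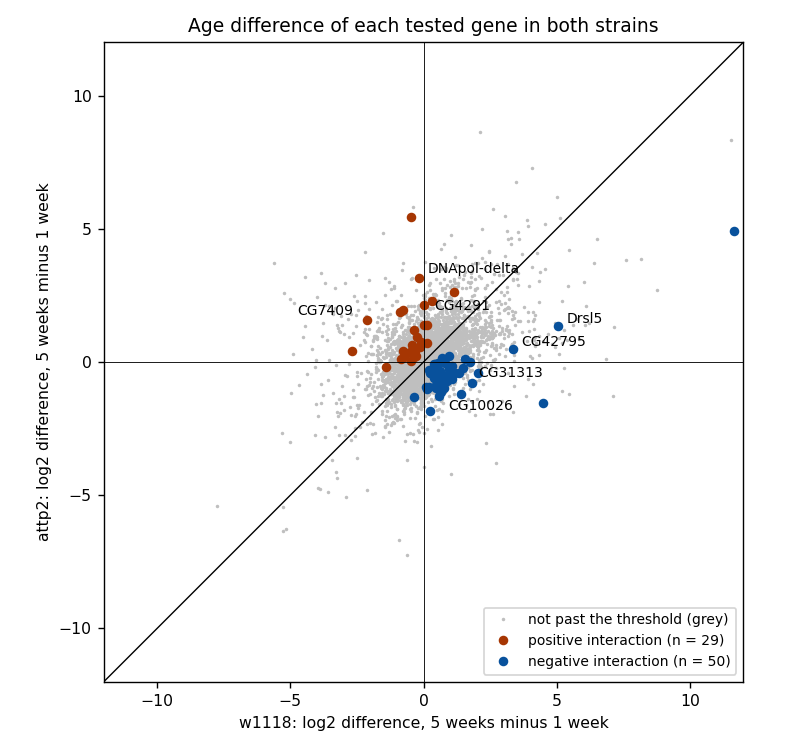
Log2 difference between 5 weeks and 1 week in attp2 (vertical axis) against w1118 (horizontal axis) for the 10387 genes tested. The 29 genes with a positive interaction (brown) lie above the line of equality and the 50 with a negative one (blue) below it, and some are labelled by name. Grey points did not pass the threshold.

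The number of calls rested on single libraries. Without w1118 1-week libraries 1, 2 and 3 in turn, 10, 6 and 8 positive and 7, 5 and 8 negative calls were left, and without w1118 1-week library 4 there were 115 and 156. Leaving out w1118 5-week libraries 1 to 4 gave 17, 33, 59 and 17 positive and 30, 36, 60 and 15 negative calls. Leaving out attp2 1-week libraries 1 to 5 gave 27, 25, 19, 10 and 33 positive and 32, 28, 25, 7 and 32 negative calls, and for attp2 5-week libraries 1 to 5 the numbers were 22, 44, 20, 35 and 11 positive and 23, 63, 22, 70 and 8 negative. In all 18 of these fits 11 genes were called, namely DNApol-delta, CG5830, CG4291, bor, CG7409 and CG17350 with a positive interaction and CG42795, CG31313, CG10026, Kaz1-ORFB and CG15120 with a negative one. Without the 3 attp2 libraries that held gut transcripts, 24 positive and 49 negative calls were made, 39 of them among the 79. All 11 of these genes were also called then. That fit also had fewer attp2 libraries, so the loss of a call in it cannot be assigned to gut transcripts. Without w1118 1-week library 2, which was not among the 3, 11 of the 79 calls were kept. In another fit the gut marker genes and the genes at least 10 times higher in those libraries than in the other attp2 libraries were left out. This removed 277 of the 10387 tested genes and left all 79 called genes in. It gave 39 positive and 60 negative calls, 78 of them among the 79. The 3 libraries stayed in that fit, so it cannot show whether the calls depend on them.

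**Figure D2:**
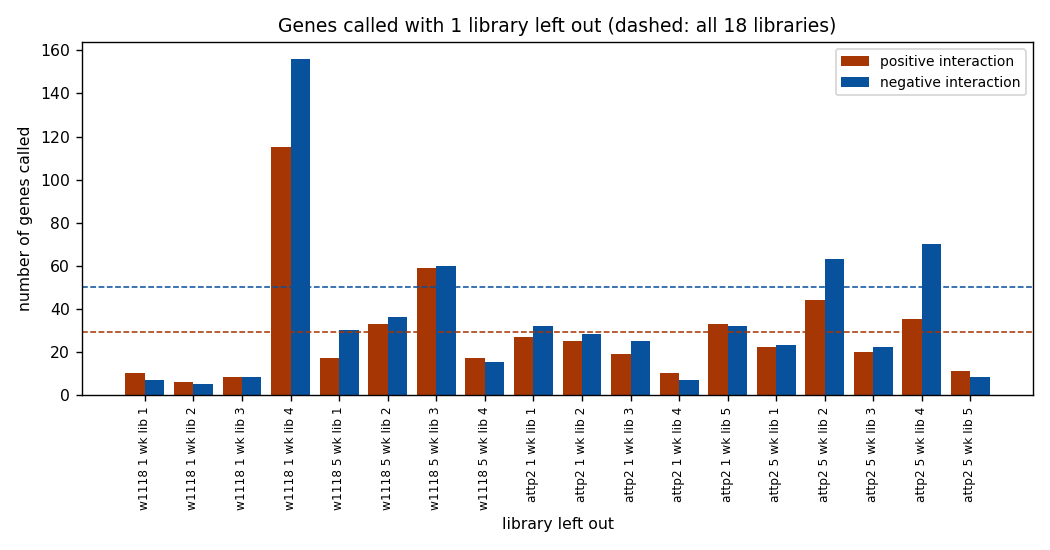
Number of genes with a positive (brown) or negative (blue) interaction at an adjusted p of 0.05 when the library named on the horizontal axis was left out, with the 29 and 50 calls of all 18 libraries as dashed lines. The counts run from 6 and 5 without w1118 1-week library 2 to 115 and 156 without w1118 1-week library 4.

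A pair of neighbouring genes on chromosome 3L and the gene CG4291 were higher at 5 weeks in attp2 and not in w1118. DNApol-delta, annotated today as PolD1, encodes the catalytic subunit of the replicative DNA polymerase delta and lies on chromosome 3L from 15984322 to 15987815 on the minus strand (BDGP6.54). Its level was 5.18, 5.75, 5.53, 5.9 and 8.11 CPM in attp2 at 1 week and 49, 67.8, 87.9, 39.4 and 26.8 CPM at 5 weeks. In w1118 it was 4.85, 6.42, 5.65 and 5.07 CPM at 1 week and 5.13, 4.71, 4.91 and 4.92 CPM at 5 weeks. Every attp2 5-week library thus lay above all other 13 libraries, and the w1118 ages overlapped. The interaction was 3.31 ± 0.36 (SE; adjusted p = 3.28e-04). It was the only call among 31 tested genes of DNA replication and repair, of which 2 in all were positive and 0 negative without adjustment. Over all genes tested, 7.75% were positive and 7.18% negative without adjustment. CG5830, annotated as hzg and encoding a phosphatase known from the embryo, lies 4854 bases away on the same strand, from 15992669 to 16004736. It measured 83.4, 73.1, 79.2, 86.2 and 96.8 CPM in attp2 at 1 week and 218, 198, 209, 218 and 239 CPM at 5 weeks, and 46.4, 43.3, 53.4 and 36.6 and 39.7, 45.5, 51 and 60.5 CPM in w1118 at the respective ages. The attp2 ages did not overlap, the w1118 ages did, and the interaction was 1.24 ± 0.17 (adjusted p = 0.00457).

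CG4291, a gene on chromosome 2L from 851251 to 852730, had the smallest p of all genes tested. It measured 38.8, 41.1, 34.1, 41 and 41.7 CPM in attp2 at 1 week and 170.2, 176, 142, 177 and 199.8 CPM at 5 weeks. In w1118 the level was 6.11, 8.93, 5.16 and 7.5 CPM at 1 week and 6.59, 7.1, 6.9 and 7.04 CPM at 5 weeks. The older attp2 libraries were above all younger ones by about the same amount in each, while the 8 w1118 libraries shared one range, which gave an interaction of 2.14 ± 0.18 (adjusted p = 2.62e-05). Cyp4p2, a cytochrome P450 gene, had the same shape, with 70.7 ± 7.52 CPM in attp2 at 1 week and 341 ± 43.5 CPM at 5 weeks (mean ± SD, n = 5) against 3.37 ± 1.52 and then 4.16 ± 1.69 CPM in w1118 (n = 4). Its interaction was 1.98 ± 0.39 (adjusted p = 0.0299), and the call held in 12 of the 18 fits that each left out 1 library. The uncharacterised genes CG8501, CG12795, CG42365 and CG44774 completed the genes with the most positive interactions whose older attp2 libraries stood above all younger ones and whose interaction was over 1. CG8501 averaged 50.5 ± 9.87 and then 184 ± 62.8 CPM in attp2 and 62.2 ± 25.1 and then 34 ± 21.4 CPM in w1118 at 1 and 5 weeks, an interaction of 2.73 ± 0.54. For CG12795 the interaction was 1.54 ± 0.27, and for CG42365 it was 1.36 ± 0.25. CG44774 was higher at 5 weeks in both strains without overlap, from 59.2 ± 5.91 to 362 ± 80.2 CPM in attp2 and from 50.4 ± 12.8 to 111 ± 29.5 CPM in w1118, and the step was larger in attp2 by 1.47 ± 0.27. The calls of these 4 genes held in 10, 17, 12 and 12 of the 18 fits in that order.

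**Figure D3:**
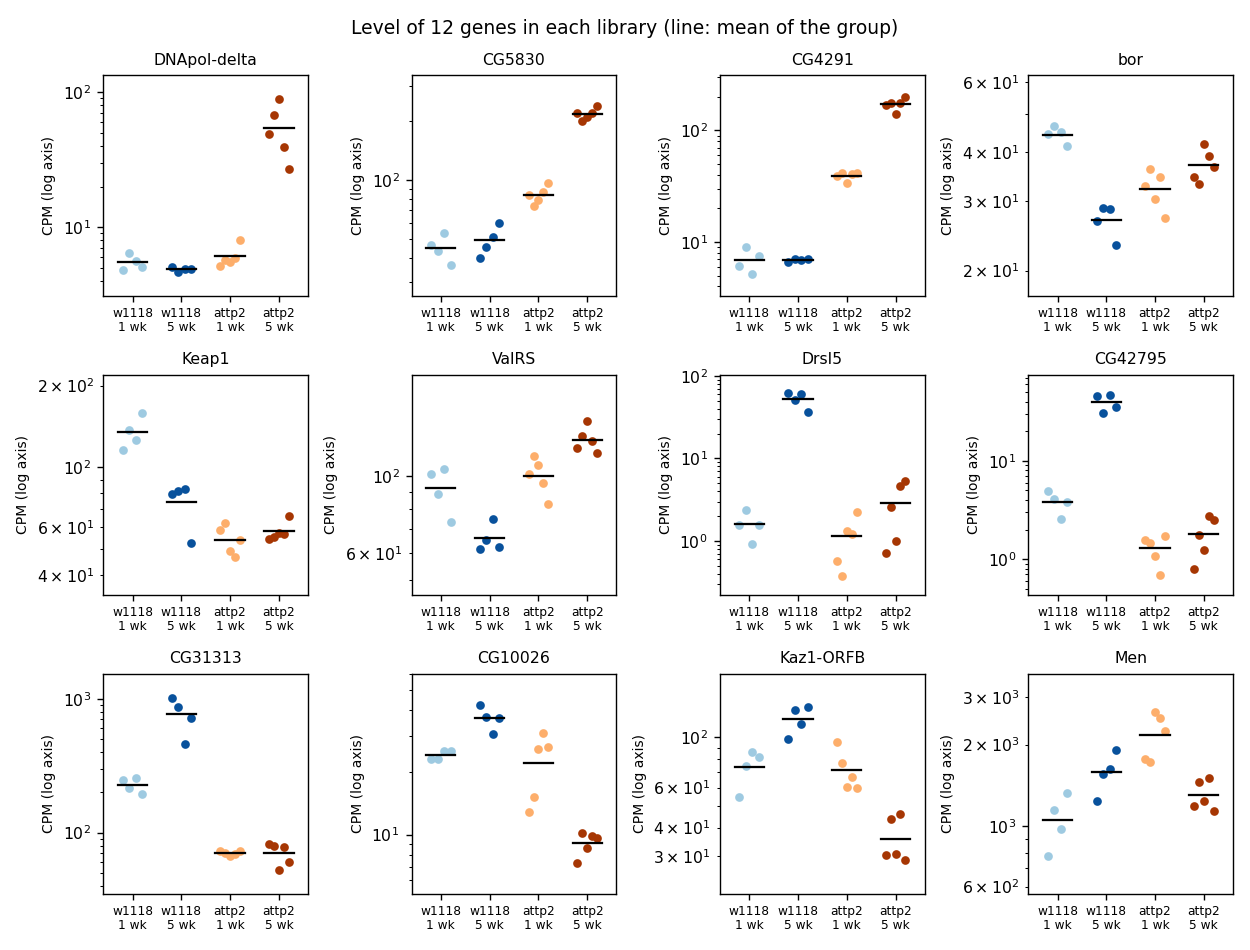
Level of 12 genes in each of the 18 libraries (CPM, log axis), grouped by strain and age, with a line at the mean of each group. DNApol-delta, CG5830 and CG4291 are high in attp2 at 5 weeks, and Drsl5, CG42795 and CG31313 in w1118 at 5 weeks. Within w1118, bor and Keap1 are lower at 5 weeks than at the younger age. CG10026, Kaz1-ORFB and Men differ with age in opposite directions in the strains.

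In a second set of genes with positive interactions the level was lower at 5 weeks in w1118, while the attp2 ages overlapped. bor encodes the fly form of ATAD3A, an ATPase of the mitochondrial inner membrane, on chromosome 3R from 16261355 to 16264115. It measured 44.3, 46.4, 44.9 and 41.4 CPM in the 1-week w1118 libraries and 26.7, 28.8, 28.6 and 23.2 CPM at 5 weeks, against 32.7, 36.2, 30.4, 34.5 and 27.2 CPM in attp2 at 1 week and 34.6, 33.2, 41.9, 39 and 36.6 CPM at 5 weeks. The w1118 ages were apart and the attp2 ages overlapped. The interaction was 0.92 ± 0.13 (adjusted p = 0.00529), the smallest of the 11 genes called in every fit with 1 library left out. Keap1 encodes the repressor of the antioxidant transcription factor CncC. In w1118 its level was 116, 137, 126 and 159 CPM at 1 week and 79.2, 81.9, 83 and 52.6 CPM at 5 weeks, without overlap. In attp2 it was 58.5, 62, 49, 46.7 and 53.6 CPM at 1 week and 54.2, 55.2, 57.2, 56.8 and 65.8 CPM at 5 weeks, and these overlapped. Its interaction of 0.96 ± 0.18 (adjusted p = 0.0289) was called in 14 of the 18 fits and was lost with the replicate number as a block and without the 3 libraries with gut transcripts. CG30187 averaged 13.7 ± 2.03 CPM at 1 week and 5.15 ± 0.729 CPM at 5 weeks in w1118 and 12.2 ± 2.23 and then 10.7 ± 1.76 CPM in attp2, an interaction of 1.21 ± 0.22 (adjusted p = 0.0289) called in 14 of the fits. CG42588 differed from these in that its attp2 ages were apart, at 17.3 ± 1.86 and then 21.8 ± 1.32 CPM, and its w1118 ages overlapped, at 30.8 ± 6.97 and then 19.7 ± 2.81 CPM. Its interaction was 0.98 ± 0.19, was called in 9 of them, and was lost without the libraries with gut transcripts.

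CG7409 and CG17350 are below the level of 10 CPM required by the naming rule and are named because their calls held in all 18 fits. CG7409 measured 3.86, 5.52, 3.49 and 8.31 CPM in the 1-week w1118 libraries and 1.25, 1.47, 1.4 and 0.735 CPM at 5 weeks, but 1.18, 0.571, 1.24, 1.32 and 1.1 CPM in attp2 at 1 week and 1.9, 4.6, 2.06, 3.03 and 4.59 CPM at 5 weeks. The ages did not overlap in either strain and stood in opposite order, an interaction of 3.70 ± 0.50 (adjusted p = 0.00405). CG17350 was lower at 5 weeks in w1118 without overlap, at 5.99 ± 3.0 and then 0.935 ± 0.248 CPM, and overlapped in attp2, at 3.11 ± 0.36 and then 4.1 ± 2.51 CPM, an interaction of 3.07 ± 0.53 (adjusted p = 0.0196).

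Aminoacyl-tRNA synthetases load amino acids onto tRNAs. Of 35 such genes tested, 3 were called positive and 0 negative, and 29 lay above 0, as did 5610 of all 10387 genes. Their median interaction was 0.17 against 0.04 for all genes. At an unadjusted p under 0.05, 13 were positive and 0 negative, where 7.75% and 7.18% of all genes were. This list was added after earlier values had been seen. ValRS measured 101, 88.7, 104 and 73.6 CPM in w1118 at 1 week, 61.5, 65.5, 75.2 and 62.3 CPM at 5 weeks, 101, 114, 107, 95.3 and 82.9 CPM in attp2 at 1 week and 120.0, 129.9, 144, 126 and 116 CPM at 5 weeks. The older attp2 libraries were above the younger ones, and the w1118 ages overlapped by 1 older library, with an interaction of 0.82 ± 0.16 (adjusted p = 0.0289). AlaRS and IleRS had interactions of 0.58 ± 0.12 and 0.51 ± 0.11 (adjusted p = 0.034 and 0.0353). Short of the threshold, AsnRS had 1.22 ± 0.31 (adjusted p = 0.0749) and HisRS 0.37 ± 0.09 (adjusted p = 0.0592). The 3 calls held in 12, 8 and 8 of the 18 fits for ValRS, AlaRS and IleRS, and none of the 3 held without the libraries with gut transcripts, where 0 members of the list were called. DESeq2 called 8 members positive, limma-voom 4, and the fit with a replicate block 6.

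Further positive calls, named here one by one after their values were seen and not from a list, were Tif-IA, an initiation factor of RNA polymerase I, CG9305 (annotated Bdp1, a subunit of the RNA polymerase III factor TFIIIB) and JhI-1 (annotated RNaseZ, which trims the ends of tRNA precursors). Tif-IA averaged 34.6 ± 3.96 CPM at 1 week and 56 ± 3.21 CPM at 5 weeks in attp2, without overlap, and 35.3 ± 2.9 and then 38.4 ± 2.82 CPM in w1118, an interaction of 0.58 ± 0.12. For CG9305 it was 0.87 ± 0.18 and for JhI-1 0.82 ± 0.16. Set1, the histone H3 lysine methyltransferase, was at 51.1 ± 4.3 and then 76 ± 6.31 CPM in attp2 and 45 ± 3.33 and then 40.4 ± 7.27 CPM in w1118 (0.73 ± 0.15). Dark, the apoptosome adaptor of the fly, was lower at 5 weeks in w1118 without overlap, at 27.6 ± 0.472 and then 21.5 ± 0.904 CPM, and at 27.4 ± 1.67 and then 30.9 ± 3.32 CPM in attp2 (0.53 ± 0.11). These 5 calls held in 5, 5, 8, 6 and 9 of the 18 fits, and those of Tif-IA, CG9305 and Set1 were lost without the libraries with gut transcripts.

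Among the 50 negative interactions, one shape was a higher level at 5 weeks in w1118 with overlapping ages in attp2. Drsl5 encodes a peptide related to the antifungal drosomycin and lies on chromosome 3L from 3316781 to 3317144. It measured 1.56, 2.36, 0.905 and 1.56 CPM in the 1-week w1118 libraries and 62.2, 51.9, 61.1 and 36.3 CPM at 5 weeks, and 0.571, 0.371, 1.31, 1.2 and 2.22 CPM in attp2 at 1 week and 0.71, 2.57, 0.998, 4.61 and 5.38 CPM at 5 weeks. All older w1118 libraries were far above every other library, whereas the attp2 ages overlapped. The interaction of −3.71 ± 0.80 (adjusted p = 0.0425) was nevertheless called in only 4 of the 18 fits, with adjusted p-values up to 0.0996 over all alternatives, and was lost without the libraries with gut transcripts. CG42795, on chromosome 3R from 10225690 to 10251277, had the same shape and was called in all 18. Its level was 4.9, 4.1, 2.59 and 3.8 CPM in the 1-week w1118 libraries, 45.4, 30.5, 46.9 and 34.9 CPM at 5 weeks, 1.57, 1.46, 1.08, 0.696 and 1.71 CPM in attp2 at 1 week and 0.799, 1.77, 1.24, 2.72 and 2.51 CPM at 5 weeks. The older w1118 libraries again stood alone, with an interaction of −2.88 ± 0.46 (adjusted p = 0.0102).

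CG31313, on chromosome 3R from 14566432 to 14567429, had the same shape at a higher level. It measured 248, 214, 256 and 195 CPM in the 1-week w1118 libraries and 1019, 865, 461 and 713 CPM at 5 weeks, and 73.3, 69.8, 66.6, 69.2 and 72.5 CPM in attp2 at 1 week and 82.2, 79.8, 52.5, 77.7 and 60.3 CPM at 5 weeks. All older w1118 libraries were above the younger ones, the attp2 ages overlapped, and the interaction was −1.74 ± 0.26 (adjusted p = 0.00691). CG3940, annotated as the carbonic anhydrase gene CAH7, averaged 39.1 ± 8.99 and then 87.8 ± 13.7 CPM at 1 and 5 weeks in w1118 and 43.7 ± 12.6 and then 32.4 ± 7.35 CPM in attp2, with an interaction of −1.60 ± 0.30 (adjusted p = 0.0289) called in 13 of the 18 fits. CG5065 was at 44.1, 19.6, 7.06 and 11.9 CPM in w1118 at 5 weeks, so that 1 library led the mean, and at 4.96 ± 0.779 CPM at 1 week. In attp2 it averaged 11.1 ± 3.09 and then 8.2 ± 1.66 CPM, and its interaction of −2.49 ± 0.54 was called in 5 of the fits. The calls of CG3940 and CG5065 were lost without the libraries with gut transcripts. MTF-1, the transcription factor of the metal response, had 63.8 ± 6.03 and then 92.2 ± 7.53 CPM in w1118, without overlap, and 66.5 ± 6.07 and then 64.4 ± 5.98 CPM in attp2, an interaction of −0.58 ± 0.13 called in 4 of the fits and lost without the libraries with gut transcripts.

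A further shape was an opposite order of the ages in the strains. CG10026, on chromosome 2L from 19454256 to 19457723, measured 23.2, 23.3, 25.4 and 25.4 CPM in the 1-week w1118 libraries and 42.3, 37, 30.7 and 36.7 CPM at 5 weeks, against 12.8, 15.2, 26.1, 30.9 and 26.5 CPM in attp2 at 1 week and 7.31, 10.1, 8.6, 9.82 and 9.65 CPM at 5 weeks. The ages were apart in both strains, higher at 5 weeks in w1118 and lower in attp2, and the interaction was −1.88 ± 0.29 (adjusted p = 0.00843). Kaz1-ORFB, which encodes a secreted protein of the Kazal type, a family of serine protease inhibitors, did the same. Its level was 54.4, 74.8, 85.7 and 81.8 CPM in the 1-week w1118 libraries, 98.4, 132, 114 and 135 CPM at 5 weeks, 95.2, 77.1, 60.1, 66.9 and 59.5 CPM in attp2 at 1 week and 30.3, 43.5, 30.4, 46 and 28.7 CPM at 5 weeks. Ages did not overlap in either strain, with an interaction of −1.70 ± 0.26 (adjusted p = 0.00843). cDIP, a leucine-rich repeat protein that binds Dpr cell surface proteins, averaged 42.3 ± 11.2 and then 71.8 ± 15.8 CPM in w1118 and 31.1 ± 4.94 and then 15.7 ± 5.91 CPM in attp2, again without overlap of the ages (−1.76 ± 0.35, adjusted p = 0.0301, called in 9 of the fits).

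Men encodes the cytosolic malic enzyme, which makes NADPH for fatty acid synthesis, and was in the crystal cell list as a marker. It measured 778, 1151, 980.3 and 1326 CPM in the 1-week w1118 libraries and 1237, 1556, 1623 and 1912 CPM at 5 weeks. In attp2 the values were 1764, 1724, 2638, 2497 and 2238 CPM at 1 week and 1186, 1457, 1240.0, 1508 and 1136 CPM at 5 weeks. The older attp2 libraries lay below all younger ones, the w1118 ages overlapped with the older ones higher on average, and the interaction was −1.31 ± 0.24 (adjusted p = 0.0289, called in 12 of the fits). The other crystal cell markers include PPO1 and PPO2, the prophenoloxidases of these blood cells, which were lower at 5 weeks without overlap in both strains and had interactions of −1.29 ± 1.01 and −0.87 ± 0.91 (adjusted p = 0.584 and 0.703). Of the 7 markers tested, 6 lay below 0 and 1, CG17109, above it, at 3.93 ± 1.43 (adjusted p = 0.195). CG17109 averaged 12.8 and then 0.634 CPM in w1118 and 0.384 and then 0.287 CPM in attp2.

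On chromosome 2R, CG6426, CG6421 and CG6435 belong to a row of 4 genes on the plus strand, from 16869402 to 16874977, with gaps of 399 bases between the first pair and 866 bases to the last, and all 3 had a negative interaction. The fourth, CG6429, lies between CG6421 and CG6435. CG6426 measured 99.6, 156, 135 and 159 CPM in w1118 at 1 week, 219.6, 273, 159 and 195 CPM at 5 weeks, 152, 96.6, 104, 113 and 85.9 CPM in attp2 at 1 week and 53.3, 71.9, 48, 74.4 and 45.4 CPM at 5 weeks. The ages were apart in both strains and in opposite order (−1.54 ± 0.29, adjusted p = 0.0289). CG6421 and CG6435 were higher at 5 weeks in w1118, at 3.74 ± 0.935 and then 11 ± 1.98 CPM and at 2.37 ± 0.516 and then 6.66 ± 1.96 CPM, and overlapped between ages in attp2 (−1.46 ± 0.32 and −1.72 ± 0.36). CG6429 had an interaction of −1.37 ± 0.54 and was not called (adjusted p = 0.239). This row was put together after the values were seen, and reads of similar neighbours may have been split by the counting. The calls of CG6426, CG6421 and CG6435 held in 13, 4 and 6 of the 18 fits and without the libraries with gut transcripts, but those of CG6421 and CG6435 were lost with scaling by library totals alone.

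Other called genes within 10 kb of each other, beside DNApol-delta and CG5830, were CG15120 with CG16926 and Pp1alpha-96A with CR44021. CG15120 measured 1.77, 3.81, 2.53 and 3.95 CPM in w1118 at 1 week, 6.89, 9.63, 7.72 and 7.35 CPM at 5 weeks, 5.41, 3.18, 7.12, 7.41 and 6.47 CPM in attp2 at 1 week and 1.95, 3.09, 2.93, 3.27 and 1.5 CPM at 5 weeks. The w1118 ages were apart, the attp2 ages overlapped by 1 library, and the interaction was −2.61 ± 0.41 (adjusted p = 0.0101). CG16926, whose 3′ end overlaps that of CG15120 on the other strand of chromosome 2R, was far more abundant, at 993 ± 225 and then 1363 ± 288 CPM in w1118 and 926 ± 135 and then 474 ± 114 CPM in attp2 (−1.42 ± 0.27, adjusted p = 0.0289). Pp1alpha-96A, a catalytic subunit of protein phosphatase 1, and CR44021, an antisense RNA inside it, had interactions of −0.995 ± 0.20 and −1.62 ± 0.32. Pp1alpha-96A was at 173 ± 12.6 and then 261 ± 71 CPM in w1118 and 207 ± 23.1 and then 157 ± 18.3 CPM in attp2, and CR44021 was at 0.881 ± 0.128 and then 1.63 ± 0.508 CPM in w1118 and 1.74 ± 0.324 and then 1.05 ± 0.199 CPM in attp2. The ages of both were apart in both strains and in opposite order. The calls of CG16926, Pp1alpha-96A and CR44021 held in 14, 9 and 11 of the 18 fits, and those of the last pair were lost without the libraries with gut transcripts. The library kit kept the strand, but no source used here gives the strand setting of the counting, so reads of these overlapping genes may not have been told apart. Over the chromosome arms, called genes numbered 11 on X, 13 on 2L, 20 on 2R, 17 on 3L, 18 on 3R and 0 on the fourth chromosome, where 88 genes were tested, and 74 were protein-coding and 5 non-coding.

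Another shape was a lower level at 5 weeks in attp2, without overlap, with overlapping ages in w1118. CG43093 averaged 14 ± 3.92 CPM at 1 week and 3.92 ± 1.82 CPM at 5 weeks in attp2 and 19 ± 5.53 and then 22.3 ± 1.55 CPM in w1118 (−2.07 ± 0.42, adjusted p = 0.0305). The carboxylesterase gene alpha-Est2 was at 65.8 ± 13.3 and then 29.7 ± 10.3 CPM in attp2 and 35.2 ± 13.9 and then 54.9 ± 12.3 CPM in w1118 (−1.79 ± 0.39). Cad87A, a cadherin of cell adhesion, was the only called member of 39 genes of the extracellular matrix and adhesion, at 66.9 ± 8.53 and then 26.6 ± 6.32 CPM in attp2 and 55.3 ± 4.34 and then 43.3 ± 6.44 CPM in w1118 (−0.97 ± 0.22). Atg9, the transmembrane protein of autophagosome formation, was the only called member of 28 autophagy genes, with a small interaction of −0.52 ± 0.12. Among 73 cytochrome P450 genes, 4 were positive and 16 negative at an unadjusted p under 0.05, where 7.75% and 7.18% of all genes were. There was 1 positive call and there were 2 negative ones, where 0.279% and 0.481% of all genes were called. The negative ones were Cyp6a22 (−0.97 ± 0.20), whose ages were apart in both strains and in opposite order, and Cyp4ac1 (−1.16 ± 0.26), and the neighbour of the latter, Cyp4ac2, had an interaction of −2.45 ± 0.57 with an adjusted p of 0.0592. The calls of CG43093, alpha-Est2, Cad87A, Atg9, Cyp6a22 and Cyp4ac1 held in 7, 4, 3, 2, 5 and 4 of the 18 fits, and all but that of CG43093 were lost without the libraries with gut transcripts. Drak, a kinase that activates myosin, and dob, a lipase gene of the brummer family, were further negative calls, at −0.87 ± 0.17 and −1.39 ± 0.30. Drak averaged 90.9 ± 6.81 and then 122 ± 18.8 CPM in w1118 and 80.1 ± 7.7 and then 58.5 ± 8.34 CPM in attp2, with overlapping ages in both. For dob the levels were 21.6 ± 6.66 and then 36.4 ± 6.68 CPM in w1118, where the ages were apart, and 27.8 ± 7.06 and then 17.8 ± 3.25 CPM in attp2, where they overlapped. Both calls were lost without the libraries with gut transcripts and held in 12 and 4 of the 18 fits.

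**Figure D4:**
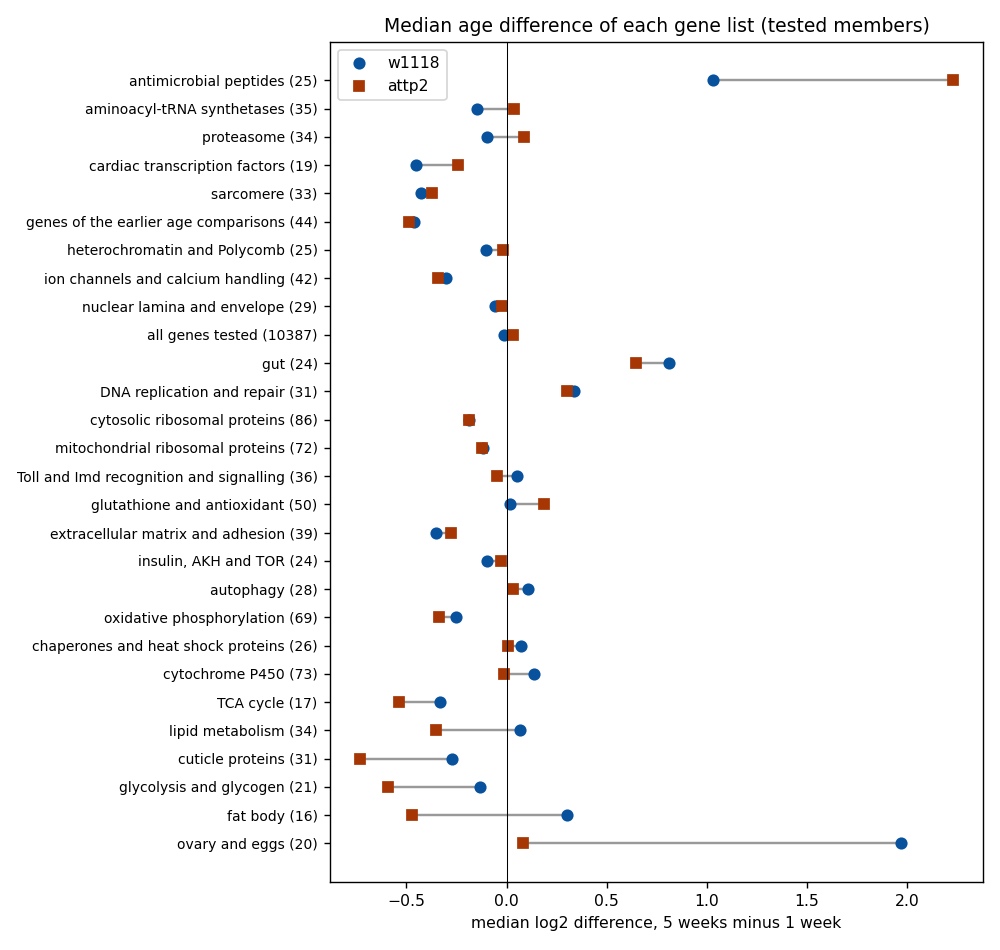
Median log2 difference between 5 weeks and 1 week over the tested members of each gene list with at least 15 of them, in w1118 (blue circles) and in attp2 (brown squares), with the number of members in parentheses. The distance within a row is wide for antimicrobial peptides, with medians of 1.03 and 2.23, for fat body markers, with 0.30 and −0.47, and for ovary markers, and narrow for ribosomal proteins, with −0.19 in both strains for the cytosolic ones.

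Gene groups were described by their calls and medians, since most members did not pass the test. Of all 10387 genes, 5610 had an interaction above 0 and 4777 below 0. At an unadjusted p under 0.05, 7.75% of all genes were positive and 7.18% negative. Antimicrobial peptides, the secreted effectors of Toll and Imd signalling, gave 0 positive calls and 1 negative call, Drsl5, among 25 tested. At an unadjusted p under 0.05, 5 were positive and 2 negative, 18 lay above 0, and the median interaction was 1.00. The summed level of all 28 genes of the list was 4028, 4498, 5640.0 and 3028 CPM in the 1-week w1118 libraries and 14218, 15526, 6262 and 3701 CPM at 5 weeks. In attp2 it was 3192, 2075, 1306, 1872 and 803 CPM at 1 week and 13708, 15277, 6365, 4211 and 11957 CPM at 5 weeks. The attp2 ages did not overlap and those of w1118 did. Drosocin (Dro), directed against bacteria, averaged 59.9 ± 34.5 and then 368 ± 224 CPM in w1118 and 25.5 ± 25.3 and then 1353 ± 901 CPM in attp2, an interaction of 3.11 ± 1.04 with an adjusted p of 0.16. DptA, AttC and DptB, of the diptericin and attacin families, had 2.81 ± 1.27, 1.65 ± 0.64 and 1.60 ± 0.73 (adjusted p = 0.306, 0.229 and 0.314). DESeq2 called 1 member and limma-voom 2, all negative. Of 36 recognition and signalling genes of the Toll and Imd pathways, 0 were called by edgeR, 5 passed without adjustment, DESeq2 called 1 and limma-voom 0.

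Genes of energy storage had interactions mainly below 0 without any call by edgeR. Among all 10387 genes, 4777 lay below 0 and 7.18% were negative at an unadjusted p under 0.05. Of 34 lipid metabolism genes, 26 lay below 0, 12 were negative and 0 positive at an unadjusted p under 0.05, DESeq2 called 4 negative and limma-voom 0, and the median was −0.33. FASN1, a fatty acid synthase, averaged 5386 ± 881 and then 2622 ± 853 CPM in attp2, without overlap, and 3436 ± 890.0 and then 3572 ± 1068 CPM in w1118 (−1.09 ± 0.36, adjusted p = 0.16). ACC, the acetyl-CoA carboxylase of the step before it, had −1.14 ± 0.32 (adjusted p = 0.111), and Desat1, a fatty acid desaturase, −0.71 ± 0.20 (adjusted p = 0.113). Of 21 glycolysis and glycogen genes, 18 lay below 0 and 8 were negative without adjustment, with a median of −0.39, 0 calls by limma-voom and 1 by DESeq2. PyK, pyruvate kinase, had −0.58 ± 0.21 (adjusted p = 0.183) and Gpdh, the glycerol-3-phosphate dehydrogenase annotated as Gpdh1, −0.94 ± 0.27 (adjusted p = 0.113). Markers of fat body, a tissue that runs these pathways, also lay mainly below 0 without a call by edgeR. Of 16 tested, 15 were below 0, with a median of −0.99, 4 were negative without adjustment, 0 were called by edgeR, and DESeq2 and limma-voom each called 1. Without the yolk proteins their sum was 3073, 4754, 4441 and 4739 CPM in the 1-week w1118 libraries, 3638, 6141, 5121 and 6043 CPM at 5 weeks, 8997, 6533, 6225, 5412 and 5752 CPM in attp2 at 1 week and 3008, 8886, 3266, 6480.0 and 3524 CPM at 5 weeks. The ages overlapped in both strains, by attp2 5-week libraries 2 and 4 in attp2. The fat body marker fit, a secreted satiety factor, had −2.78 ± 0.65 (adjusted p = 0.0592). In these bulk samples fewer cells of a type and less RNA per cell cannot be told apart, and the part of fat body RNA in the lower lipid and glycolysis values was not tested.

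Genes of oxidative phosphorylation, the TCA cycle, ribosomes and the proteasome gave no call by edgeR. Over all 10387 genes, 0.761% were called, and 7.75% were positive and 7.18% negative at an unadjusted p under 0.05. Of 69 oxidative phosphorylation genes, 0 were called and 0 passed without adjustment by edgeR, 0 by DESeq2 and 0 by limma-voom, with a median interaction of −0.10, which changed sign with scaling by library totals. For 17 TCA cycle genes the median was −0.20, 4 were negative without adjustment, and DESeq2 and limma-voom each called 1. Cytosolic and mitochondrial ribosomal proteins, with 86 and 72 members, had medians that rounded to 0 and lay above 0 with scaling by library totals, 0 calls by edgeR, DESeq2 or limma-voom, and 2 members each under an unadjusted p of 0.05. Of 34 proteasome genes, 32 lay above 0, as did 5610 of all 10387 genes. Their median was 0.17, and 0 passed without adjustment or by DESeq2 or limma-voom. Among 50 glutathione and antioxidant genes, Keap1 was the single call, 10 members were positive and 9 negative without adjustment, and GstE11, a glutathione transferase, was at 1.43 ± 0.33 (adjusted p = 0.0592). Of 26 chaperone genes, 0 were called by edgeR or limma-voom and 1 by DESeq2, and 4 were positive without adjustment. Hsp60A, the mitochondrial chaperonin, had 0.59 ± 0.16 (adjusted p = 0.0976).

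Of 31 cuticle protein genes 0 were called by edgeR, 2 were positive and 5 negative without adjustment, and DESeq2 and limma-voom each called 3. Over all genes, 14.9% passed without adjustment, 7.75% as positive and 7.18% as negative. Markers of other cells near the heart gave 0 calls by edgeR beside Men. Of 14 plasmatocyte markers, 2 passed without adjustment and DESeq2 called 1. Of 10 oenocyte markers, 2 passed without adjustment and DESeq2 called 1, and of 9 nephrocyte markers 1 passed and DESeq2 and limma-voom called 0. Of 24 gut markers, 0 passed even without adjustment, 0 were called by DESeq2 or limma-voom, and of 20 ovary markers 4 were negative without adjustment and DESeq2 called 2.

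Lists of heart genes gave no call by edgeR. Over all 10387 genes, 0.761% were called and 14.9% passed without adjustment, 7.75% as positive and 7.18% as negative. Of 33 sarcomere genes, 0 were called by edgeR, DESeq2 or limma-voom and 3 passed without adjustment, with a median interaction of 0.12. Mhc, the muscle myosin heavy chain, averaged 3141 ± 323 CPM at 1 week and 1444 ± 392 CPM at 5 weeks in w1118 and 2698 ± 474 and then 1300.0 ± 113 CPM in attp2, without overlap of the ages in either strain. Its interaction was 0.07 ± 0.23, with 95% bounds of −0.42 and 0.55. For SERCA, the calcium pump of the sarcoplasmic reticulum, the bounds were −0.25 and 0.38, and for sei, the potassium channel of the ERG type, −0.40 and 0.55. Of 19 cardiac transcription factors, 0 were called by any of the 3 tools and 1, the T-box gene mid, passed without adjustment, at 1.15 ± 0.45 (adjusted p = 0.228). Other T-box genes tested had interactions of 0.17 ± 0.23 for H15, 0.99 ± 0.77 for Doc1 (−0.0327 without the libraries with gut transcripts), 0.83 ± 0.54 for Doc3 and 0.29 ± 0.35 for org-1. The cardiac homeobox gene tin had 0.47 ± 0.29. Of 42 ion channel and calcium genes, 0 were called by edgeR or limma-voom, 3 were negative without adjustment and DESeq2 called 2. Of 29 genes of the nuclear lamina and envelope, 0 were called by edgeR or limma-voom, 4 passed without adjustment, DESeq2 called 1, and the median was 0.05. LamC, the A-type lamin, averaged 247 ± 15.4 and then 188 ± 5.0 CPM in w1118, apart, and 177 ± 35.7 and then 145 ± 28.7 CPM in attp2, with overlapping ranges and an interaction of 0.10 ± 0.20 (95% bounds −0.32 and 0.52). Lam, the B-type lamin, had −0.11 ± 0.16 (−0.45 and 0.24), and MAN1, an inner nuclear membrane protein, had 0.32 ± 0.09 (adjusted p = 0.0976).

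A set of 44 reference genes was described whatever their interaction, because they stood out in age comparisons made earlier within each strain of these same data. Of these, 41 had an age difference of the same sign in both strains, and in 28 the ages did not overlap in either strain and stood in the same order. Drsl5 was the only one called by edgeR (0.761% of all genes tested were), and 28 had a 95% interval that included 0. The interval of the other 16 (36.4%) lay on one side of 0, where 14.9% of all genes had an unadjusted p under 0.05. Because the genes were picked by age differences in these same libraries, the shared signs, the separate ages and this share partly follow from that choice. They support nothing by themselves. Of the reference genes, the blood cell genes PPO1, PPO2, NimC4 and Pxn were lower at 5 weeks in both strains, without overlap of the ages. This did not hold for all plasmatocyte markers. crq, for example, averaged 335 and then 524 CPM in w1118 and 408 and then 681 CPM in attp2. NimC4 had an interaction of 1.34 ± 0.58, with bounds of 0.12 and 2.56 (adjusted p = 0.281). Pxn, the peroxidasin of haemocytes and basement membrane, had 239 ± 27.1 and then 40.4 ± 18.5 CPM in w1118 and 297 ± 20.7 and then 43.2 ± 17.8 CPM in attp2, with an interaction of −0.22 ± 0.41 (−1.08 and 0.64). lectin-33A, a C-type lectin, had bounds of −1.14 and 1.08, and Pal2, an enzyme of peptide amidation that was higher at 5 weeks in both strains, −1.24 and 0.63. The intervals were wider for genes that varied between libraries, such as PPO1 (−3.42 and 0.84), so that a strain difference of several fold could not be seen for them at this number of libraries.

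**Figure D5:**
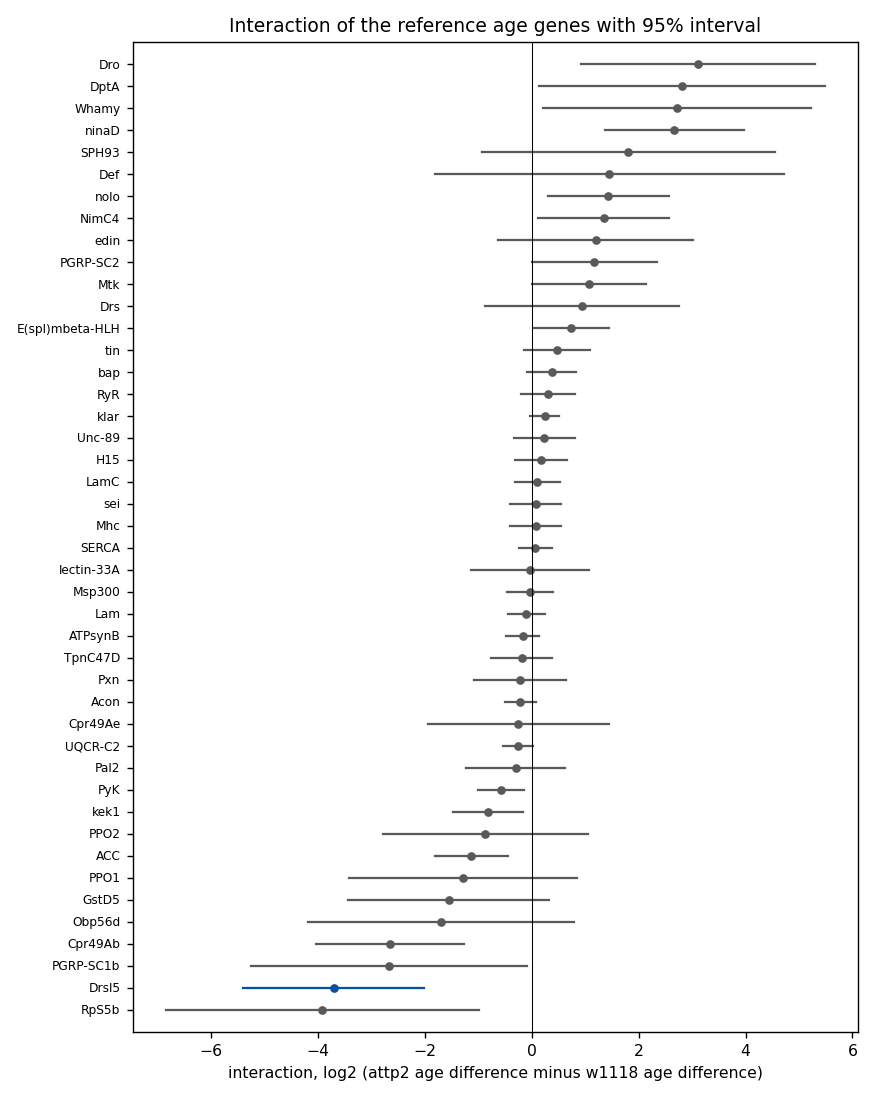
Interaction (log2, points) with its 95% interval (bars) for the 44 reference genes, ordered by value, with Drsl5, the only gene called, in blue. Intervals are narrow for Mhc, SERCA, LamC and Lam and several units wide for immune genes and PPO1.

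Closest to the threshold among the reference genes were ninaD and Cpr49Ab. ninaD, a scavenger receptor gene for carotenoid uptake, was lower at 5 weeks in both strains, from 5.68 ± 2.12 to 0.145 ± 0.0982 CPM in w1118 and from 21.7 ± 2.54 to 3.41 ± 0.882 CPM in attp2 (2.67 ± 0.61, adjusted p = 0.0576). The older w1118 libraries stood at 0.215, 0.176, 0 and 0.189 CPM, so counting error is large in that group. Cpr49Ab, a cuticle protein gene, was at 6.63 ± 1.75 and then 7.25 ± 2.19 CPM in w1118 and 33.4 ± 6.81 and then 5.82 ± 4.44 CPM in attp2 (−2.65 ± 0.66, adjusted p = 0.0677). The cuticle gene next to it in the set, Cpr49Ae, was lower at 5 weeks in both strains without overlap, with an interaction of −0.25 ± 0.80 and bounds of −1.94 and 1.44. PGRP-SC1b, an amidase that degrades peptidoglycan, averaged 0.747 ± 0.954 and then 63.9 ± 22.8 CPM in w1118 and 0.786 ± 0.937 and then 10.2 ± 8.21 CPM in attp2 (−2.67 ± 1.22, adjusted p = 0.314). Its neighbour PGRP-SC2 had an interaction of the other sign, 1.17 ± 0.55 (adjusted p = 0.334).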

How the data were processed

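Hearts were removed, kept in Quizol and frozen, RNA was extracted with the miRNeasy kit, and sequencing used the TruSeq Stranded mRNA kit, per the labels' protocols. The submitters' processing notes name cutadapt, STAR, DESeq2 and the dm6 build, without versions. Which program counted the reads, whether it used the strand, and on which annotation, is not stated. The authors deposited whole-number counts per gene symbol, in one table for w1118 and another for attp2. They also deposited normalized values, which were checked to be the log2 of count divided by size factor, plus 1, and were not tested. The 17103 symbols in both tables were joined. Positions, 1-based, come from the BDGP6.54 annotation, in which 13263 symbols were current, 3713 older and 127 unmatched.

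The interaction was tested, two-sided, in R 4.3.3 with edgeR 4.0.16 (quasi-likelihood F-test) over the 18 control libraries, on 10387 genes kept by filterByExpr, with TMM scaling. Unless DESeq2 or limma-voom is named, adjusted p-values come from edgeR and were corrected over the 10387 genes (Benjamini-Hochberg), with a threshold of 0.05. Standard errors are the size of the log2 value divided by the square root of F, intervals are 95%, and levels are CPM as mean ± SD (n = 4 in w1118, 5 in attp2). Because the smallest library held 21.8 M counts (M, mega), spread between libraries more than counting error limits most genes named, but not those near 0 CPM in a group, such as ninaD and PGRP-SC1b, where counting error is large. No pair of libraries of a group agreed within sampling noise, as the chi-square per gene was at least 60.5.

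Named genes were the 12 most positive and 12 most negative called genes with a mean of at least 10 CPM in 1 group, up to 3 called members of each list, and 44 reference genes. Others are named after their values were seen. Members of the lists and the rules were chosen with earlier results of these data known, and so support nothing by themselves. Alternatives were DESeq2 1.42.0, limma-voom with quality weights (limma 3.58.1), other scalings and filters, a spread per strain, a replicate block, stricter thresholds and leaving out each library. On simulated data with this design, the test recovered 48% of 100 genes changed by a log2 interaction of 1 and 86% of 100 changed by 2. It made 5 false calls over 10387 genes. The simulated libraries varied independently, and only genes with a mean of at least 1 CPM were changed. Deviations shared by several libraries, such as those of gut transcripts, were not simulated, so these rates need not hold for the real libraries. Promoter sequences were not used here.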

Additional observations from a re-analysis of the deposited data

Results flagged for a closer look

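The age difference of 47 of the genes named above differed between attp2 and w1118 by the edgeR test of the interaction itself. The positive interactions were CG7409 at 3.70, DNApol-delta at 3.31, CG17350 at 3.07, CG8501 at 2.73, CG4291 at 2.14, Cyp4p2 at 1.98, CG12795 at 1.54, CG44774 at 1.47 and CG42365 at 1.36. Smaller positive values were CG5830 at 1.24, CG30187 at 1.21, CG42588 at 0.98, Keap1 at 0.96, bor at 0.92, CG9305 at 0.87, JhI-1 at 0.82, ValRS at 0.82 and Set1 at 0.73. Further positive values were AlaRS at 0.58, Tif-IA at 0.58, Dark at 0.53 and IleRS at 0.51. On the negative side, the values were Drsl5 at −3.71, CG42795 at −2.88, CG15120 at −2.61, CG5065 at −2.49, CG43093 at −2.07, CG10026 at −1.88, alpha-Est2 at −1.79, cDIP at −1.76 and CG31313 at −1.74. They were followed by CG6435 at −1.72, Kaz1-ORFB at −1.70, CR44021 at −1.62, CG3940 at −1.60, CG6426 at −1.54, CG6421 at −1.46, CG16926 at −1.42, dob at −1.39 and Men at −1.31. Next came Cyp4ac1 at −1.16, Pp1alpha-96A at −0.995, Cad87A at −0.97, Cyp6a22 at −0.97, Drak at −0.87, MTF-1 at −0.58 and Atg9 at −0.52.

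Of 428 groups of 4 or 5 libraries, 34 had 1 library far from the rest by Dixon's test, where chance alone gives about 1 in 20. Library 3 of w1118 at 1 week stood apart for PGRP-SC1b at 2.17 CPM. Library 4 of w1118 at 1 week stood apart for CG3940 at 52.5 CPM, GstD5 at 16.3 CPM and RpS5b at 1.37 CPM. Library 1 of w1118 at 5 weeks stood apart for CG6421 at 13.9 CPM and Desat1 at 3525 CPM. Library 2 of w1118 at 5 weeks stood apart for Cpr49Ab at 3.98 CPM, RpS5b at 31.8 CPM, UQCR-C2 at 236 CPM and Pp1alpha-96A at 367 CPM. Library 3 of w1118 at 5 weeks stood apart for Obp56d at 33.7 CPM. Library 4 of w1118 at 5 weeks stood apart for Keap1 at 52.6 CPM and AlaRS at 111 CPM. Library 3 of attp2 at 1 week stood apart for CG8501 at 33.1 CPM and klar at 119.6 CPM. Library 4 of attp2 at 1 week stood apart for DptA at 144 CPM and SPH93 at 8.18 CPM. Library 5 of attp2 at 1 week stood apart for DNApol-delta at 8.11 CPM, Msp300 at 1052 CPM and Mhc at 3518 CPM. Library 2 of attp2 at 5 weeks stood apart for PPO1 at 79 CPM, PPO2 at 74.6 CPM, Cpr49Ae at 4.39 CPM, lectin-33A at 237 CPM, Acon at 549 CPM, CG17350 at 8.38 CPM and CG6429 at 44.7 CPM. Library 3 of attp2 at 5 weeks stood apart for Whamy at 55.6 CPM, E(spl)mbeta-HLH at 5.73 CPM and Doc1 at 2.77 CPM. Library 4 of attp2 at 5 weeks stood apart for CG6421 at 7.77 CPM, Obp56d at 7.91 CPM and CG6435 at 5.9 CPM. Library 5 of attp2 at 5 weeks stood apart for Keap1 at 65.8 CPM.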

How the results depend on the processing

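The number of calls depended on the test and on single libraries, and its balance of signs on whether library totals alone were used for scaling. The 29 positive and 50 negative calls became 186 and 228 with DESeq2, 87 and 130 with limma-voom, 173 and 307 with a spread per strain, 70 and 106 with a replicate block, 5 and 3 at an adjusted p of 0.01, and 16 and 34 with an interaction of at least 1. Scaling by library totals gave 103 positive and 34 negative calls, so that 75.2% were positive, against 36.7% with the scaling reported. With 1 library left out, positive calls ran from 6 to 115 and negative calls from 5 to 156, both lowest without w1118 1-week library 2 and highest without w1118 1-week library 4, which also had the lowest voom weight (0.533). The cause of these differences was not tested. DESeq2 size factors, the upper quartile and TMM within each table gave 82, 78 and 89 calls, the absence of a filter 69, and a filter of 5 CPM 104. Of the 79 genes, 8 were called in all 30 fits and 42 in 9 or more of the 18 with 1 library left out. The replicate numbers were not taken to pair the libraries, since not every pair of same-numbered libraries had deviations that correlated by over 0.1. In w1118 the correlations ran from −0.03 to 0.11. In attp2 they were 0.514, 0.341, 0.841, −0.14 and 0.274, a hint of pairing there that no label gives, and not every library matched its own number best. The block kept 67 of the 79 calls.

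Interactions close to 0 changed sign. With scaling by library totals lectin-33A was at 0.088, Lam at 0.065 and Msp300 at 0.14, and with limma-voom Msp300 was at 0.093. With 1 library left out, values ran from −0.51 to 0.29 for lectin-33A, −0.14 to 0.070 for Msp300, −0.0205 to 0.16 for SERCA, −0.064 to 0.19 for sei, −0.0792 to 0.23 for Mhc, −0.41 to 0.14 for Pxn, −0.018 to 0.22 for LamC and −1.23 to 0.0057 for Cpr49Ae. Without the 3 libraries with gut transcripts, an alternative chosen after seeing the data, lectin-33A was at 0.14, sei at −0.038 and Doc1 at −0.0327. Genes with wide intervals, such as PPO1 and the antimicrobial peptides, are limited by the spread between libraries. Over the 107 named genes and 3414 values under the alternatives, 2882 kept their direction and side of the threshold, 435 lost the call, 71 gained one and 26 changed sign.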
